A study of Mus musculus with 12 samples.

Results

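The 10 genes described here encode the mucins and the secretory program of the goblet cells of the mouse colon. They were chosen by symbol: Muc2, Muc1, Muc4, Muc13, Fcgbp, Spink4, Tff3, Agr2, Spdef and Atoh1. All 10 were found by Ensembl identifier among the 54532 genes of the deposited table, and all 10 passed the filter on low values, an FPKM of 1 or more in at least 3 libraries. FPKM is a fragment count divided by exon length and library size, so it is a level per length of gene. The samples were from the colon of wild-type C57BL/6J mice, in 4 groups of 3 libraries. The sample titles name the colon and no part of it. In the first group a high-fat diet (HFD) was combined with 2% DSS, written here as HFD+DSS. In the second, a diet labelled CD, which the labels do not spell out, was combined with 2% DSS (CD+DSS). The other 2 groups received HFD or CD without DSS. The agent DSS, dextran sulfate sodium, injures the colonic epithelium and is used to provoke colitis. The labels give neither the age of the mice nor the length of the diets or of the DSS treatment. They do not say whether the 3 libraries of a group came from separate animals, so the p-values given here measure the spread between these libraries.

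Goblet cells are secretory cells of the intestinal epithelium. They differentiate under the transcription factor Atoh1, mature under Spdef, and fill their granules with the gel-forming mucin Muc2, which the endoplasmic reticulum protein Agr2 helps to produce. Secreted Muc2 forms the mucus layers that keep bacteria away from the colonic surface, and it is packed together with Fcgbp, Tff3 and other granule proteins. Muc1, Muc4 and Muc13 are transmembrane mucins of the epithelial cell surface and are not restricted to goblet cells.

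Each library held about 14700000 to 17900000 fragments on genes. HFD+DSS replicate 1 stood apart from the other libraries on 1 principal component (17.5% of the variance) and HFD+DSS replicate 3 on another (13.2%). Stomach and exocrine pancreas markers were nearly absent, with summed levels of at most 0.605 and 0.597 FPKM in any library, and Gkn2 was at 0 in all 12. Among small intestine markers the Paneth cell gene Defa22 was at 0 in every library and Lct reached 0.115 FPKM. Other markers of that list were not absent: Mttp reached 2.208 FPKM, Sis 2.717 FPKM and Fabp6 32.4 FPKM. Fabp2, which the colon also expresses, reached 826 FPKM. The source of the Fabp6 level was not tested. The gel-forming mucin of the stomach surface, Muc5ac, was at 0 everywhere, and Muc5b and Muc6 reached 0.0126 and 0.211 FPKM.

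In all 4 groups the secreted products and Agr2 were abundant and the regulators were low. Tff3 had the highest mean in HFD+DSS and CD+DSS, at 1262 ± 387 and 986 ± 287 FPKM, and Agr2 in HFD and CD, at 754 ± 26.8 and 953 ± 307 FPKM (SD, n = 3 each). Spdef, Atoh1 and Muc4 had group means of 9.31 to 46.7 FPKM, and Muc1 was the lowest member in every group. In CD, each of the first 5 genes in order, Agr2, Spink4, Muc2, Muc13 and Tff3, overlapped the next between libraries. Muc2 ranked 2 in CD+DSS and in HFD, 3 in CD and 5 in HFD+DSS, where its libraries lay apart from those of Fcgbp below it and overlapped those of Spink4 above it.

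**Figure D1:**
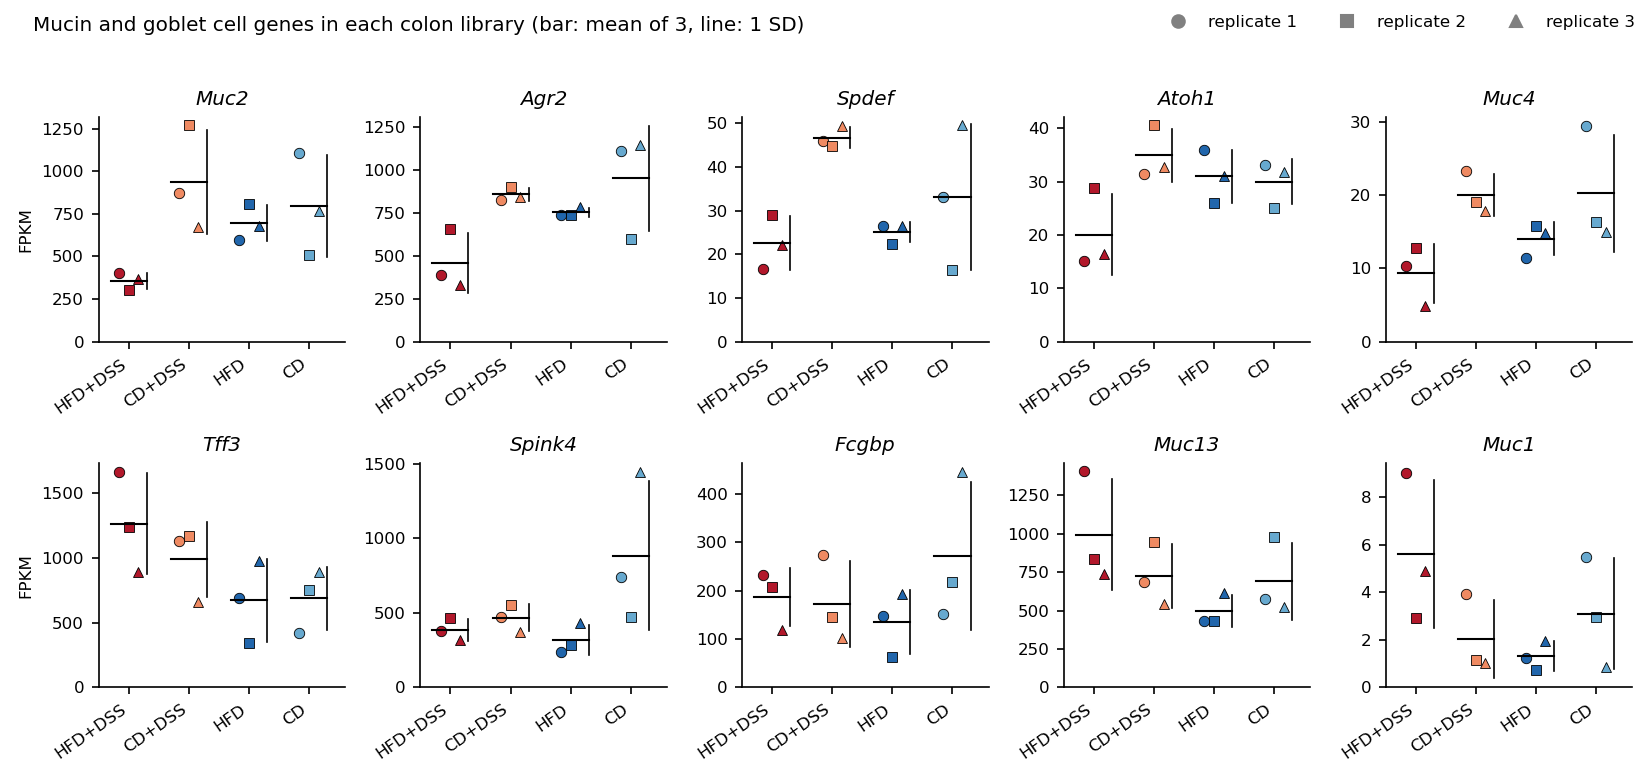
FPKM of the 10 genes in each library, on linear axes from 0, by group. Points are libraries, horizontal bars the mean of 3 and vertical lines 1 SD on either side of it. Muc2 lies between 304 and 401 FPKM in the 3 HFD+DSS libraries, below all 9 others.

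Muc2 (ENSMUSG00000025515, mm10 chr7:141690340-141754693, plus strand) is the main structural protein of colonic mucus. It was at 401, 304 and 365 FPKM in HFD+DSS, 870.0, 1268 and 671 FPKM in CD+DSS, 599, 809 and 676 FPKM in HFD, and 1109, 510.3 and 768 FPKM in CD. The 3 HFD+DSS libraries lay below each of the other 9, an order that 103 of the 14179 genes tested had (0.726%), and no other member. The difference of HFD+DSS from CD+DSS was -1.35 ± 0.31 on the log2(FPKM + 1) scale (SE; 95% interval -2.03 to -0.67), a ratio of 0.392, with an unadjusted p of 0.00104. It did not pass limma's test over all genes (adjusted p = 0.700). The difference from HFD was -0.96 ± 0.31 (interval -1.63 to -0.28; limma adjusted p = 0.221). These comparisons share the HFD+DSS libraries. CD+DSS against CD gave 0.26 ± 0.31 and HFD against CD gave -0.14 ± 0.31, with intervals that include 0. The DSS difference under HFD minus that under CD was -1.21 ± 0.44 (interval -2.17 to -0.26; limma adjusted p = 0.802).

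Agr2 (ENSMUSG00000020581, chr12:35992907-36004087, plus strand), a protein disulfide isomerase needed for Muc2 production in mice, was at 389, 659 and 328 FPKM in HFD+DSS, 828, 902 and 844 FPKM in CD+DSS, 741, 737 and 785 FPKM in HFD, and 1112, 598 and 1148 FPKM in CD. Every HFD+DSS library lay below every CD+DSS and every HFD library, while CD replicate 2 fell among the HFD+DSS values. Agr2 and Muc2 were the only members with that order, which 1.23% of genes tested had. Agr2 differed by -0.97 ± 0.30 in HFD+DSS against CD+DSS (interval -1.62 to -0.31; limma adjusted p = 0.720) and by -0.78 ± 0.30 in HFD+DSS against HFD (interval -1.44 to -0.13; limma adjusted p = 0.293). The coefficient of variation of its FPKM was 3.55% in HFD and 4.52% in CD+DSS, against 38.4% in HFD+DSS and 32.3% in CD.

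Spdef (ENSMUSG00000024215, chr17:27714352-27728955, minus strand), an ETS-family transcription factor of goblet cell maturation, was at 16.6, 29.0 and 22.1 FPKM in HFD+DSS, 46.0, 44.7 and 49.4 FPKM in CD+DSS, 26.4, 22.5 and 26.4 FPKM in HFD, and 33.1, 16.4 and 49.7 FPKM in CD. The CD+DSS libraries were close together and above all HFD+DSS and HFD libraries, and the CD libraries held both the lowest and the highest value. HFD+DSS against CD+DSS gave -1.05 ± 0.32 (interval -1.76 to -0.34; limma adjusted p = 0.709). Against HFD the difference was -0.18 ± 0.32, which is less than its SE, and CD+DSS against CD gave 0.62 ± 0.32 (limma adjusted p = 0.384).

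Atoh1 (ENSMUSG00000073043, chr6:64729125-64731245, plus strand, a single exon), the basic helix-loop-helix factor required for secretory cells, was at 15.0, 28.7 and 16.4 FPKM in HFD+DSS, 31.4, 40.7 and 32.7 FPKM in CD+DSS, 35.9, 26.0 and 31.0 FPKM in HFD, and 33.0, 25.1 and 31.8 FPKM in CD. HFD+DSS replicates 1 and 3 were lower than every library of the other groups, and HFD+DSS replicate 2 was above the lowest HFD and CD libraries. The difference was -0.82 ± 0.23 in HFD+DSS against CD+DSS (interval -1.33 to -0.30; limma adjusted p = 0.700) and -0.65 ± 0.23 in HFD+DSS against HFD (interval -1.16 to -0.13; limma adjusted p = 0.271).

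The sequences before the transcription start of Muc2, Agr2, Spdef and Atoh1 are shown because these goblet cell genes each had all HFD+DSS libraries below all CD+DSS libraries. Each run is the 250 bases before the start in RefSeq annotation of GRCm38.p6, read 5′ to 3′ on the strand of the gene, and capitals mark the motif matches. The windows are chr7:141690090-141690339 (plus strand), chr12:35992675-35992924 (plus strand), chr17:27728952-27729201 (minus strand) and chr6:64728875-64729124 (plus strand).
Muc2: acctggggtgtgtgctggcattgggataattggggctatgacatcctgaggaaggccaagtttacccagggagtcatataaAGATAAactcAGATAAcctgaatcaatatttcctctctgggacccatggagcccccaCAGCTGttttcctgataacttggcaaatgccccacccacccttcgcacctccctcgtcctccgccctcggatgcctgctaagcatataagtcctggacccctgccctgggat
Agr2: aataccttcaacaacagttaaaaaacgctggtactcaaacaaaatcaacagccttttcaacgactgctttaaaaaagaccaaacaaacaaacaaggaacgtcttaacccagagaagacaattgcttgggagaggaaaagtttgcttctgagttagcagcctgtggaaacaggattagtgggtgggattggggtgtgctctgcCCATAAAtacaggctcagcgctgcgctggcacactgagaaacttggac
Spdef: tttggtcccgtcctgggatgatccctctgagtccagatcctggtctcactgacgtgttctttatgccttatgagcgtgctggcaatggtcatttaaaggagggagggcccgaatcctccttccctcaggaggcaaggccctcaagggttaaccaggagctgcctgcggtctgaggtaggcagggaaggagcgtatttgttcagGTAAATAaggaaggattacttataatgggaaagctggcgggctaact
Atoh1: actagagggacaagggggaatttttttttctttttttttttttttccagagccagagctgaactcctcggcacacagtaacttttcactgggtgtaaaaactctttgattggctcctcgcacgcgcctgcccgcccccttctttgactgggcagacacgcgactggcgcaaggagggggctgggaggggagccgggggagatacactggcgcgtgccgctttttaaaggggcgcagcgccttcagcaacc

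The motifs searched on both strands were the E-box forms CAGCTG and CAGATG, the GATA form AGATAA, the FOX forms TGTTTAC and TATTTAC, the CDX form TTTATGG and the ETS form CCGGAT. Of 32851 mouse promoter windows of the same length, CAGCTG was found in 13.0%, CAGATG in 14.4%, AGATAA in 9.99%, TGTTTAC in 3.17%, TATTTAC in 2.73%, TTTATGG in 2.43% and CCGGAT in 4.94%. The Muc2 window held AGATAA at 169 to 164 and at 159 to 154 bases before the start and CAGCTG at 112 to 107. Agr2 held 1 reverse-strand TTTATGG, read as CCATAAA, at 48 to 42, and Spdef 1 reverse-strand TATTTAC, read as GTAAATA, at 47 to 41. The Atoh1 and Muc4 windows held none of these letters. Of the other members with a window, Fcgbp had CAGCTG, Muc1 CAGATG and Muc13 CATCTG, which is CAGATG on the reverse strand. No motif was shared by all 5 genes whose HFD+DSS and CD+DSS libraries were apart. A match is a description of the sequence and does not show a bound site.

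Tff3 (ENSMUSG00000024029, chr17:31125306-31129646, minus strand), a trefoil peptide of goblet cell granules that acts in epithelial repair, was at 1663, 1234 and 889 FPKM in HFD+DSS, 1132, 1171 and 656 FPKM in CD+DSS, 690.5, 344 and 978 FPKM in HFD, and 417, 754 and 888 FPKM in CD. The highest 2 libraries were in HFD+DSS, and every pair of groups overlapped except HFD+DSS and CD, whose nearest libraries were at 889 and 888 FPKM. The difference was 0.99 ± 0.43 in HFD+DSS against HFD (interval 0.05 to 1.93; limma adjusted p = 0.350) and 0.36 ± 0.43 in HFD+DSS against CD+DSS (limma adjusted p = 0.911). Averaged over the diets, DSS gave 0.77 ± 0.30 (limma adjusted p = 0.163).

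Spink4 (ENSMUSG00000028415, chr4:40920052-40931395, plus strand), a Kazal-type inhibitor family peptide of goblet cells, was at 377, 463 and 316 FPKM in HFD+DSS, 473, 553 and 373 FPKM in CD+DSS, 241, 284 and 432 FPKM in HFD, and 738, 472 and 1442 FPKM in CD. CD replicate 3 was far above the other 11 libraries. All HFD libraries lay below all CD libraries, as they did for 5.02% of genes tested. The difference was -1.36 ± 0.37 in HFD against CD (interval -2.18 to -0.54; unadjusted p 0.00370; limma adjusted p = 0.798), and -0.93 to -1.74 when any 1 library was left out. CD+DSS against CD gave -0.79 ± 0.37 (interval -1.60 to 0.03; limma adjusted p = 0.344), a comparison that shares the CD libraries.

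Fcgbp (ENSMUSG00000047730, chr7:28071236-28120862, plus strand), a large mucus protein that is bound to Muc2, was at 233, 208 and 119 FPKM in HFD+DSS, 273, 145 and 101 FPKM in CD+DSS, 148, 63.6 and 193 FPKM in HFD, and 152, 218 and 445 FPKM in CD. The groups overlapped in every comparison, and CD replicate 3 was again the highest library. HFD against CD gave -0.999 ± 0.513 (interval -2.13 to 0.13). The other fitted differences were -0.62 in CD+DSS against CD, 0.17 in HFD+DSS against CD+DSS and 0.55 in HFD+DSS against HFD, and all 4 intervals include 0.

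Muc13 (ENSMUSG00000022824, chr16:33794037-33819934, plus strand) was the most abundant of the transmembrane mucins chosen. It was at 1408, 835 and 741 FPKM in HFD+DSS, 685, 949 and 543 FPKM in CD+DSS, 434, 436 and 617 FPKM in HFD, and 575, 979.7 and 522 FPKM in CD. All HFD+DSS libraries lay above all HFD libraries, an order found for 8.82% of genes tested, and HFD+DSS overlapped CD+DSS and CD. The difference from HFD was 0.97 ± 0.33 (interval 0.24 to 1.69; limma adjusted p = 0.245) and from CD+DSS 0.43 ± 0.33 (limma adjusted p = 0.836). An antisense gene, Gm15657, covers 184 exonic bases of Muc13 (6.06%), and its highest level was 3.38 FPKM. The sources used here do not say whether strand was used in counting.

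Muc4 (ENSMUSG00000079620, chr16:32735886-32782391, plus strand) was at 10.3, 12.8 and 4.87 FPKM in HFD+DSS, 23.2, 19.0 and 17.8 FPKM in CD+DSS, 11.5, 15.8 and 14.8 FPKM in HFD, and 29.4, 16.3 and 15.0 FPKM in CD. All HFD+DSS libraries lay below all CD+DSS and all CD libraries and overlapped HFD. HFD+DSS against CD+DSS gave -1.11 ± 0.32 (interval -1.80 to -0.41; limma adjusted p = 0.700), and -0.74 without HFD+DSS replicate 3, the lowest library. The neighbouring mucin gene Muc20 shares 627 exonic bases with it on the opposite strand and was at 0.357 FPKM or less.

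Muc1 (ENSMUSG00000042784, chr3:89229057-89233381, plus strand) was at 9.00, 2.93 and 4.89 FPKM in HFD+DSS, 3.93, 1.17 and 1.03 FPKM in CD+DSS, 1.26, 0.749 and 1.97 FPKM in HFD, and 5.495, 2.96 and 0.869 FPKM in CD. These levels correspond to 31 to 322 fragments per library, so Muc1 is the least precisely measured member. All HFD+DSS libraries lay above all HFD libraries and overlapped CD+DSS and CD. Muc1 differed by 1.43 ± 0.49 in HFD+DSS against HFD (interval 0.36 to 2.51; limma adjusted p = 0.244). Set against CD+DSS, the HFD+DSS difference was 1.14 ± 0.49 (interval 0.06 to 2.21; limma adjusted p = 0.749). At a low level the size depends on the pseudocount, and with 5 in place of 1 these differences were 0.71 and 0.57. The difference from HFD was 1.95 with a pseudocount of 0.1 and 2.02 with voom on recovered fragments. The highest difference from CD+DSS was 1.525 among alternatives other than leaving out a library. With the posterior Hox level as a covariate the differences from HFD and from CD+DSS were 0.75 and 0.32.

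Counted over the 10 genes, no member passed the limma test in any comparison, and voom on recovered fragments called 0 as well. In HFD+DSS against HFD, limma called 0.339% of all genes tested, and 3 members with positive and 3 with negative differences had an unadjusted p under 0.05, where 13.6% of all genes did. In CD+DSS against CD, 0.0846% of genes were called, and 0 members had such a p, where 15.2% of all genes did. In HFD against CD and in HFD+DSS against CD+DSS, limma and voom each called 0 genes. In HFD against CD 1 member, Spink4, had an unadjusted p under 0.05, where 4.15% of all genes did. In HFD+DSS against CD+DSS 5 members with negative differences (Muc2, Muc4, Agr2, Spdef and Atoh1) and Muc1 had one, where 6.62% of all genes did. The same 5 had all HFD+DSS libraries below all CD+DSS libraries, an order found for 5.85% of all genes. The members' median difference there was -0.55, and the median of all genes was -0.03. DSS averaged over the diets called 2.74% of genes and 0 members, of which Tff3 and Muc13 had an unadjusted p under 0.05, where 23.5% of all genes did. HFD averaged over DSS called 0 genes in limma and in voom, with 662 genes (4.67%) at an unadjusted p under 0.05, among them 6 members, all negative. The interaction also called 0 genes by both, with 769 genes (5.42%) at an unadjusted p under 0.05 and 3 members, Muc2, Atoh1 and Muc1. With the posterior Hox level as a covariate the interaction was -0.65 for Muc2, -0.41 for Atoh1 and 0.34 for Muc1, against -1.21, -0.86 and 1.82 without it, and with it none of the 3 had an unadjusted p under 0.05 in limma. By the libraries alone, 2 members lay wholly lower in HFD+DSS than in HFD (Muc2 and Agr2; 7.6% of all genes) and 2 wholly higher (Muc1 and Muc13; 8.82% of all genes). In CD+DSS against CD 0 members were apart, where 13.7% of all genes lay wholly higher and 10.4% wholly lower. In HFD against CD 0 members lay wholly higher (4.61% of all genes), and in HFD+DSS against CD+DSS 0 did (3.6%). The exact permutation test of 3 libraries against 3 cannot go below 0.10 for a single gene.

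**Figure D2:**
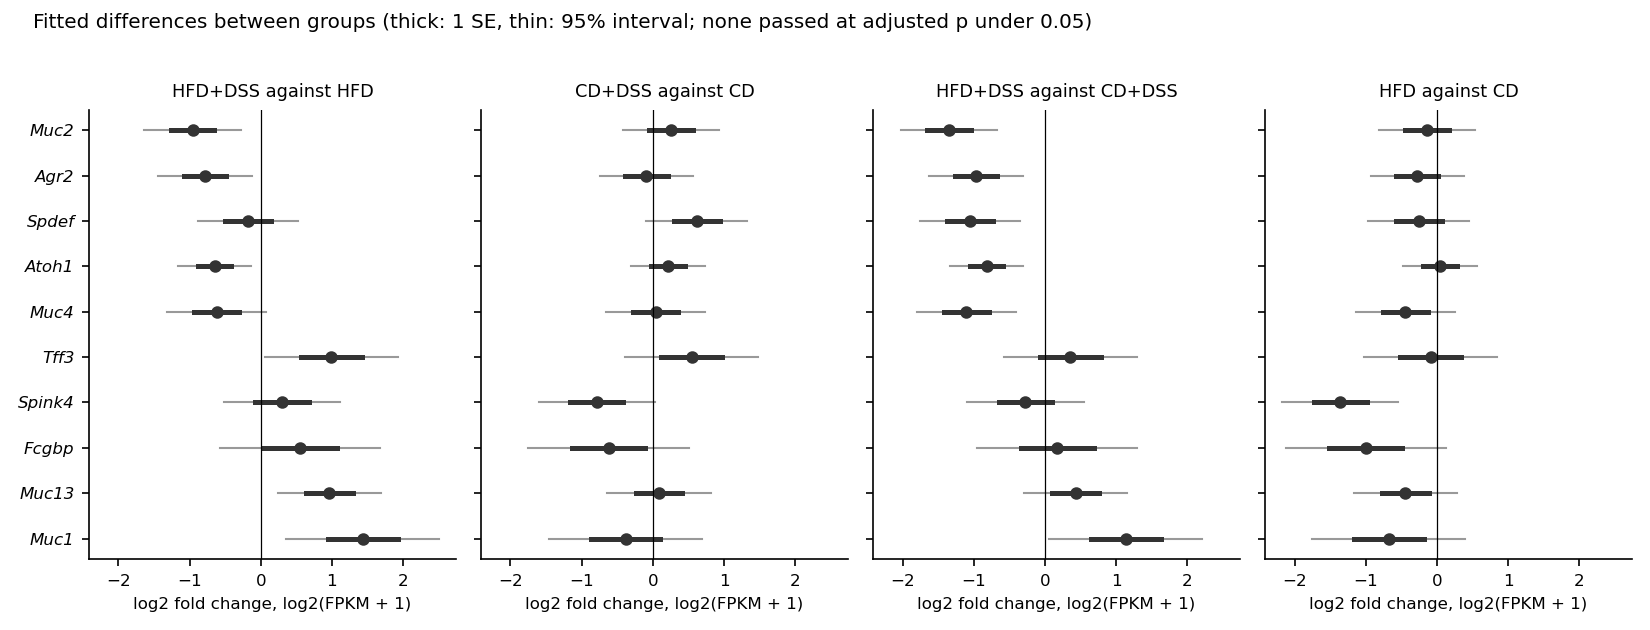
Fitted differences of the 10 genes in log2(FPKM + 1) in 4 comparisons, with 1 SE (thick) and 95% intervals (thin). In HFD+DSS against CD+DSS, Muc2, Agr2, Spdef, Atoh1 and Muc4 lie between -1.35 and -0.82, and Muc1 lies at 1.14. None passed at an adjusted p under 0.05.

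The members did not keep fixed proportions. The ratio of Tff3 to Muc2 FPKM within a library was 4.15, 4.06 and 2.44 in HFD+DSS and lay between 0.376 and 1.48 in the other 9 libraries. The ratio of Muc13 to Muc2 was 3.51, 2.74 and 2.03 in HFD+DSS, against 0.519 to 1.92 elsewhere, where CD replicate 2 was highest. For Zg16, a lectin-like granule protein that is no member, the ratio to Muc2 was 6.69, 5.24 and 2.64 in HFD+DSS and 0.441 to 2.15 elsewhere. The ratio of Agr2 to Muc2, at 0.899 to 2.17 in HFD+DSS, overlapped the 0.711 to 1.496 of the other libraries, and that of Atoh1 to Muc2, at 0.0375 to 0.0944, overlapped their 0.0298 to 0.0600. The ratio of Fcgbp to Muc2, at 0.327 to 0.684 in HFD+DSS, overlapped the 0.0786 to 0.579 elsewhere. That of Spdef to Muc2, at 0.0413 to 0.0952, overlapped 0.0278 to 0.0736. All these ratios share Muc2, itself lowest in the HFD+DSS libraries, so a gene that did not fall with it tends to lie apart. The share of all genes with such an order was not computed. These ratios were chosen after the values had been seen and carry no test.

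**Figure D3:**
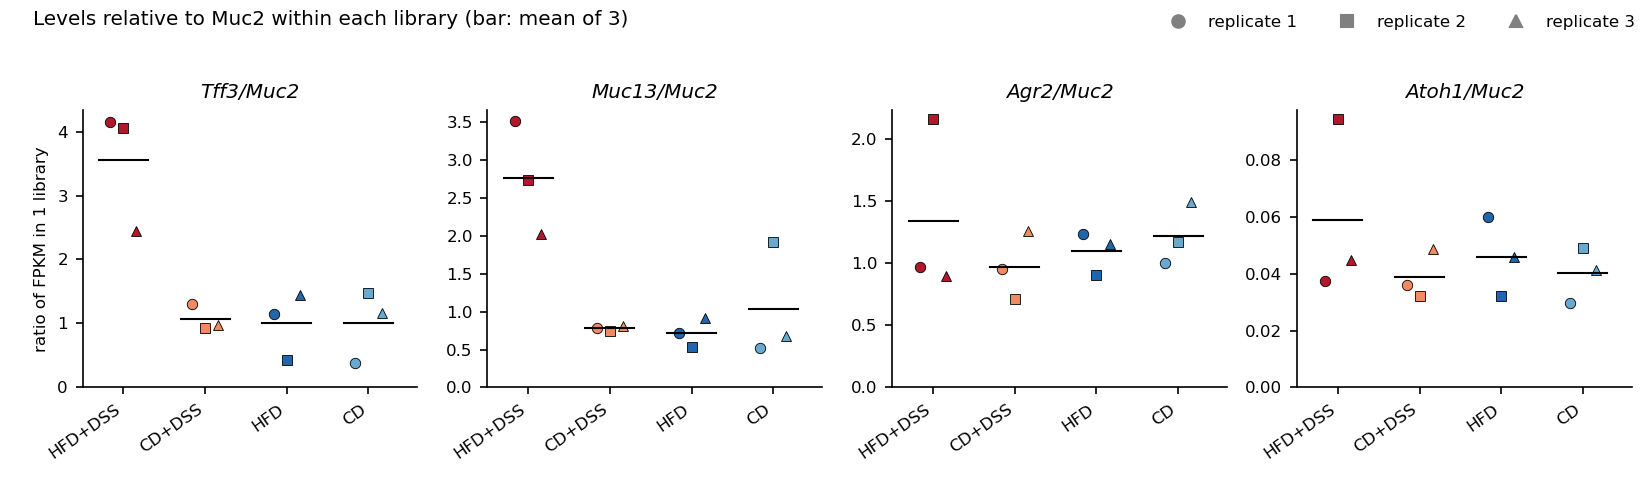
Ratio of the FPKM of Tff3, Muc13, Agr2 and Atoh1 to that of Muc2 within each library, on linear axes from 0, with bars at the mean of 3. The 3 HFD+DSS libraries lie above all 9 others for Tff3 (2.44 to 4.15) and Muc13 (2.03 to 3.51) and overlap them for Agr2 and Atoh1. All panels share Muc2, itself lowest in the HFD+DSS libraries.

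In RNA of colon tissue, fewer goblet cells and less RNA per goblet cell cannot be told apart, and other features of the tissue moved with these groups. The 16 pan-epithelial genes summed to 5619 to 6521 FPKM in HFD+DSS and 6364 to 9905 FPKM in CD+DSS. Of the 15 tested in HFD+DSS against CD+DSS, all 15 had negative differences, with a median of -0.40 and 0 called. The 11 smooth muscle genes summed to 1120 to 3166 FPKM in HFD+DSS and 682 to 1275 FPKM in CD+DSS, and all 11 differences were positive, with a median of 0.88. HFD+DSS replicate 3 had the highest smooth muscle level of the 12 libraries. In CD+DSS against CD all 15 pan-epithelial differences were positive (median 0.53) and all 11 smooth muscle differences negative (median -0.53). Hoxa13, Hoxb13 and Hoxd13, posterior Hox genes that are expressed toward the anal end of the gut, summed to 46.6 to 92.8 FPKM in HFD+DSS, 1.62 to 40.5 FPKM in CD+DSS, 7.04 to 34.7 FPKM in HFD and 38.3 to 111 FPKM in CD.

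**Figure D4:**
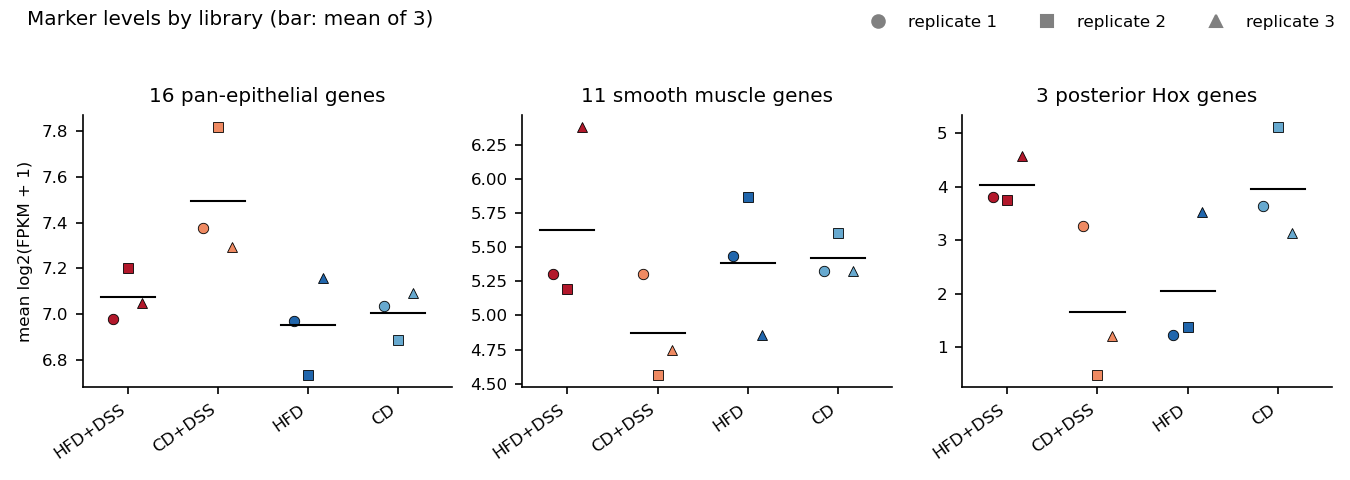
Mean log2(FPKM + 1) of 16 pan-epithelial, 11 smooth muscle and 3 posterior Hox genes in each library, with bars at the mean of 3. The axes do not start at 0. HFD+DSS libraries lie at 6.98 to 7.20, 5.19 to 6.38 and 3.74 to 4.57, and CD+DSS libraries at 7.29 to 7.82, 4.56 to 5.31 and 0.473 to 3.26.

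Relative to the pan-epithelial mean of the same library, the log2 level of Muc2 was 1.06 to 1.67 in HFD+DSS, 2.10 to 2.49 in CD+DSS, 2.25 to 2.93 in HFD and 2.11 to 3.08 in CD, so HFD+DSS remained below the other groups. On that scale the HFD+DSS libraries of Agr2, Atoh1 and Muc4 lay below all HFD libraries and overlapped CD+DSS, and those of Spdef overlapped both. With the pan-epithelial level as a covariate the HFD+DSS against CD+DSS difference was -1.02 for Muc2, -1.05 for Muc4, -0.67 for Spdef, -0.59 for Agr2 and -0.38 for Atoh1. With the smooth muscle level it was -1.31 for Muc2, -0.78 for Muc4, -0.89 for Spdef, -0.63 for Agr2 and -0.56 for Atoh1. With the posterior Hox level it was -1.04 for Muc2, -1.09 for Muc4, -0.71 for Spdef, -0.62 for Agr2 and -0.57 for Atoh1. With the pan-epithelial or the posterior Hox covariate, Muc2 (unadjusted p 0.0299 and 0.0323) and Muc4 (0.0439 and 0.0349) had an unadjusted p under 0.05 in limma, while Agr2 (0.149 and 0.150), Spdef (0.150 and 0.132), Atoh1 (0.186 and 0.1002) and Muc1 (0.237 and 0.596) did not. With the smooth muscle covariate Muc2 alone of these 6 genes did (unadjusted p 0.00687). The pan-epithelial and posterior Hox levels each lay apart between the HFD+DSS and CD+DSS libraries. In fits with these 2 covariates the group therefore cannot be told apart from composition or position. Without HFD+DSS replicate 1 the difference was -1.44 for Muc2, -1.21 for Muc4, -0.86 for Spdef, -0.88 for Agr2 and -0.65 for Atoh1, and without HFD+DSS replicate 3 it was -1.37 for Muc2, -0.74 for Muc4, -1.05 for Spdef, -0.76 for Agr2 and -0.71 for Atoh1. Against HFD and without HFD+DSS replicate 1, Muc2 differed by -1.05, Agr2 by -0.70, Muc1 by 1.08, Muc13 by 0.69 and Tff3 by 0.77. The posterior Hox level also lay apart between HFD+DSS (3.74 to 4.57) and HFD (1.23 to 3.53), so group and position cannot be told apart there either. With that covariate, HFD+DSS against HFD gave Muc2 -0.70, Agr2 -0.49, Atoh1 -0.44, Muc13 0.75, Tff3 0.71 and Muc1 0.75. None of these had an unadjusted p under 0.05 in limma (0.1026 to 0.2255). No member passed over all genes in these fits. The posterior Hox level overlapped between HFD+DSS and CD, groups that differ in both diet and DSS. The part of tissue composition and of position along the colon in the ratios to Muc2 was not tested.

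Across the 12 libraries the members differed in their Pearson correlation of log2(FPKM + 1), a description of libraries that share 4 groups and a common scaling. Agr2 followed Atoh1 (r = 0.88), Muc4 (0.82), Muc2 (0.76) and Spdef (0.72), and Tff3 followed Muc13 (0.73) and Fcgbp (0.61). Spink4 followed Fcgbp (0.68), and also Agr2 (0.58) and Spdef (0.51), so the members did not form separate groups. Muc2 and Tff3 had r = -0.40. With the group means removed, Agr2 kept 0.81 with Spdef and 0.79 with Atoh1, and Tff3 had 0.89 with Fcgbp. Spink4 had 0.75 with Spdef and 0.705 with Agr2, while Muc2 with Agr2 was 0.32 and Muc2 with Atoh1 0.08.

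**Figure D5:**
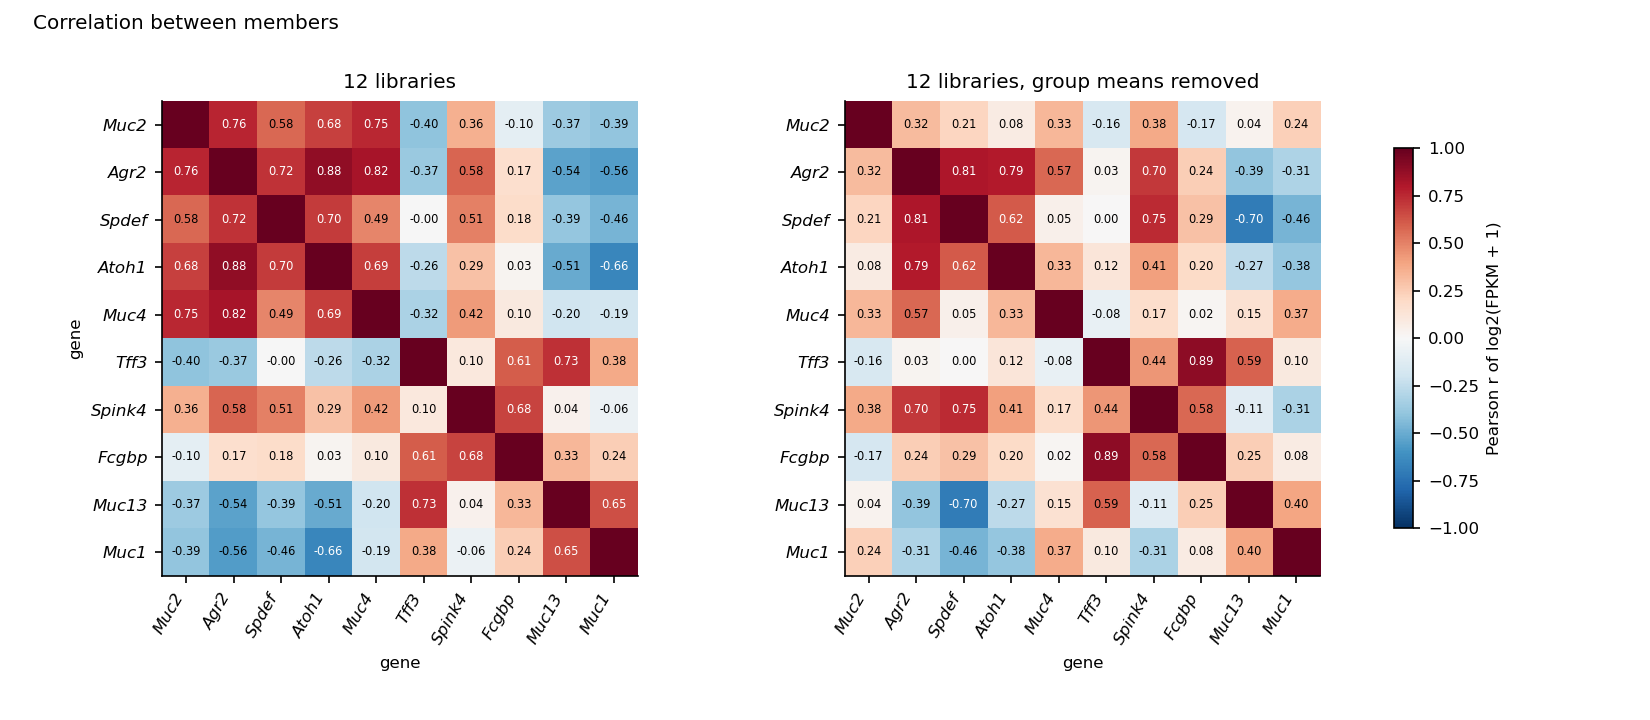
Pearson correlation of log2(FPKM + 1) between the 10 genes over 12 libraries, before (left) and after (right) the group means were removed. Agr2 with Atoh1 is at 0.88 on the left and 0.79 on the right, and Agr2 with Muc2 at 0.76 and 0.32.

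Among the 7446 other genes with a mean of 5 FPKM or more, the one most like each member over the 12 libraries was Mia3 for Muc2 (r = 0.93), Kctd14 for Agr2 (0.98), Clip2 for Spdef (0.92), Galnt10 for Atoh1 (0.95), Galnt7 for Muc4 (0.91), Zg16 for Tff3 (0.95), Scin for Spink4 (0.81), the immunoglobulin segment Igkv4-50 for Fcgbp (0.84), Tmem45b for Muc13 (0.95) and Pyy for Muc1 (0.88). Mia3, which encodes a protein for the export of large secretory cargo from the endoplasmic reticulum, was at 22.8, 23.3 and 18.9 FPKM in HFD+DSS, 31.0, 36.2 and 31.3 FPKM in CD+DSS, 28.8, 32.6 and 29.2 FPKM in HFD, and 37.6, 26.5 and 30.8 FPKM in CD. Like Muc2 it was lower in each HFD+DSS library than in the other 9. The genes of this paragraph were picked for their likeness to a member in these same libraries, so a shared order is no separate result. The second gene for Agr2 was Foxa3 (0.97), a forkhead factor of the goblet lineage, at 9.14, 14.1 and 8.51 FPKM in HFD+DSS and 16.2, 17.7 and 18.3 FPKM in CD+DSS.

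Other parts of the goblet cell pathway were described from lists, none of which had a gene that passed in HFD+DSS against CD+DSS, where 0 genes passed at all. Other goblet cell products had negative differences there in 11 of 15 tested genes (median -0.42; 5 lower and 1 higher at an unadjusted p under 0.05). Of all genes, 6.62% had such a p in that comparison. The resistin-like molecule Retnlb was at 163, 192 and 92.7 FPKM in HFD+DSS and 326, 493 and 501 FPKM in CD+DSS, with no overlap (-1.59 ± 0.52; limma adjusted p = 0.722). The antimicrobial ribonuclease Ang4 was at 21.8, 16.8 and 2.88 FPKM in HFD+DSS, 113, 41.4 and 89.2 FPKM in CD+DSS, 126, 144 and 15.9 FPKM in HFD, and 238, 262 and 3194 FPKM in CD, where replicate 3 was again the outlying library. Clca1, a metalloprotease of the mucus, was at 861, 435 and 160.1 FPKM in HFD+DSS and 723, 328 and 201 FPKM in CD+DSS, and overlapped. In HFD against CD all 15 tested products had negative differences (median -0.28, against -0.016 over all genes). They come from the same libraries and are not 15 independent results. In CD, Clca1 was at 763, 1087 and 3795 FPKM and Retnlb at 330, 366 and 1300 FPKM, with replicate 3 the highest of the 12 libraries for both. Of the 15 products, 4 had an unadjusted p under 0.05 in HFD against CD, where 4.15% of all genes did, and 0 passed. The other mucins held only 2 tested genes, Muc3 and Muc3a, of the 12 in the table.

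The folding genes of the endoplasmic reticulum had negative differences in 18 of 20 tested genes in HFD+DSS against CD+DSS (median -0.17). At an unadjusted p under 0.05 there were 4, where 6.62% of all genes had such a p. Ern2, the stress sensor of goblet cells, was at 6.75, 16.6 and 10.7 FPKM in HFD+DSS and 21.8, 18.0 and 21.8 FPKM in CD+DSS, again without overlap. Xbp1, the transcription factor spliced by that pathway, was at 108, 95.4 and 92.0 FPKM in HFD+DSS and 100.1, 103 and 109 FPKM in CD+DSS (-0.08 ± 0.15). Secretory fate regulators had negative differences in 16 of 18 (median -0.28; 3 at such a p). The Notch-pathway genes Hes1 and Dll1 differed by -0.31 ± 0.21 and -0.02 ± 0.19, and the Atoh1-dependent factor Gfi1 by -0.49 ± 0.25. Genes of granule release had negative differences in 13 of 17 (median -0.30; 2 lower and 1 higher at such a p). The pan-epithelial genes were negative there in all 15 tested (median -0.40; 4 at such a p). Whether these lists moved apart from the epithelium in general was not tested.

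Mucin glycosylation had negative differences in 16 of 21 genes in HFD+DSS against CD+DSS (median -0.38) and in 17 of 21 in HFD+DSS against HFD (median -0.40). At an unadjusted p under 0.05, 6 were lower and 1 higher in HFD+DSS against CD+DSS, where 6.62% of all genes had such a p. In HFD+DSS against HFD 7 were lower and 2 higher, where 13.6% of all genes had one. B3gnt6, the core 3 synthase of colonic O-glycans, was at 2.82, 9.40 and 3.38 FPKM in HFD+DSS, 14.5, 22.8 and 17.8 FPKM in CD+DSS, 23.5, 31.7 and 9.76 FPKM in HFD, and 24.8, 8.59 and 18.5 FPKM in CD. Its HFD+DSS libraries lay below all CD+DSS and HFD libraries, with differences of -1.77 ± 0.49 and -1.88 ± 0.49 (limma adjusted p = 0.700 and 0.149). Galnt10, a transferase that starts O-glycans, was at 15.7, 33.4 and 18.0 FPKM in HFD+DSS and 40.6, 44.8 and 37.6 FPKM in CD+DSS.

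The genes of these lists that passed did so with DSS. St3gal6, a sialyltransferase, fell with DSS under CD, being at 8.26, 4.60 and 6.06 FPKM in CD+DSS and 24.8, 29.6 and 21.3 FPKM in CD (-1.86 ± 0.25; limma adjusted p = 0.0328). The call was lost under 11 of 23 alternatives, with a difference of -2.05 to -1.42 over the 23. Among the 11 were the posterior Hox (limma adjusted p = 0.594), pan-epithelial (0.5245) and smooth muscle (0.156) covariates. The call was also lost without CD+DSS replicate 2 or 3, HFD replicate 2, or CD replicate 1 or 2, with a limma adjusted p of at most 0.181. Under HFD St3gal6 was at 13.1, 10.1 and 9.11 FPKM in HFD+DSS and 7.45, 13.3 and 12.5 FPKM in HFD, which overlapped (-0.02 ± 0.25; limma adjusted p = 0.980). Its average over the diets, which joins these 2 unlike differences, was -0.94 ± 0.17 (limma adjusted p = 0.0204). The interaction for St3gal6, 1.84 ± 0.35, did not pass over all genes (limma adjusted p = 0.407). Averaged over the diets, DSS was accompanied by rises of the fucosyltransferase Fut2 (1.27 ± 0.21; 0.0137), the epithelial transcription factor Elf3 (0.99 ± 0.18; 0.0162) and the inflammasome sensor Nlrp6 (0.58 ± 0.13; 0.0408). Fut2 was at 122, 64.6 and 48.3 FPKM in HFD+DSS, 55.4, 72.5 and 69.3 FPKM in CD+DSS, 20.9, 22.5 and 34.0 FPKM in HFD, and 29.96, 27.6 and 35.6 FPKM in CD, so the libraries with and without DSS did not overlap. Its call was lost under 1 of 22 alternatives, with the pan-epithelial level as a covariate (1.14; limma adjusted p = 0.190). Under that covariate Elf3 (0.71; limma adjusted p = 0.246), Nlrp6 (0.33; 0.426) and St3gal6 (-0.67; 0.304) also missed the threshold. Elf3 missed it without HFD replicate 2 (limma adjusted p = 0.0564) or CD replicate 1 (0.0607), St3gal6 without HFD replicate 2 (0.0651), CD replicate 1 (0.0620) or CD replicate 2 (0.0594), and Nlrp6 without any 1 of 9 libraries, with an adjusted p of at most 0.117 among them. In all, the Nlrp6 call was lost under 15 of 22 alternatives, which also include no filter (0.0682), the replicate block (0.0844), the TPM scale (0.0753) and the posterior Hox (0.0596) and smooth muscle (0.0511) covariates, with a difference of 0.33 to 0.66 over the 22. Elf3 is also 1 of the 16 pan-epithelial genes.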

How the data were processed

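The deposited table held FPKM, which the authors computed for 54532 genes named by Ensembl identifier, with 1 column for each of 12 libraries. Genome build mm10 is given per the submitters' processing notes. For the aligner, the counting tool and the annotation used, nothing is given in these sources. Low values stepped in whole fragments, and with exon lengths from GENCODE M21 (mm10) 97.0% to 97.2% of values were whole within 0.1 fragment. The deposited FPKM carried a scaling to an equal median ratio in every library.

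Symbols and coordinates came from GENCODE M21, promoter sequences from RefSeq GRCm38.p6 (8 of the 10 members matched, not Spink4 and Tff3). Groups came from the treatment labels. Values were fitted as log2(FPKM + 1), which understates changes of low genes, with limma 3.58.1 in R 4.3.3 (lmFit, contrasts.fit, eBayes with trend), with all 12 libraries in 1 fit and no covariate. Testing covered the 14179 genes that reached FPKM 1 in at least 3 libraries, with Benjamini-Hochberg adjustment over all of them and a call at an adjusted p under 0.05. Counts of calls use limma, and voom on recovered fragments was an alternative. The fit was run on simulated counts of independent libraries with known changes in the HFD+DSS group. The simulation held no shift of tissue composition or position, so it does not show how the fit behaves under such shifts. The 20 gene lists held 240 entries. Named genes were the 10 members, list genes called in any comparison, the 2 smallest p of each list in each of 4 comparisons, 11 genes set by name, and the 3 genes most like each member. The text gives a selection of them. The members and lists were chosen with earlier results of these data known, and the motifs after the sequences had been read. Same-numbered libraries had correlations of -0.46 to 0.20 in 18 pairs, 3 of them over 0.1, which gave no clear sign of pairing. With 3 libraries in each group these correlations cannot exclude a shared batch. Intervals cover the spread between libraries. Fragments are not independent molecules, and fragment counts per gene give counting error only.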

Additional observations from a re-analysis of the deposited data

How the results depend on the processing

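No member was called under any of 23 alternatives, which were other pseudocounts (0.1 and 5), no filter, a fit of the groups compared alone, a replicate block, a TPM scale, voom on recovered fragments, 3 covariates, eBayes without trend and each of 12 libraries left out. The lowest limma adjusted p was 0.0722 over 1140 values, of which 38 changed sign, in 15 of 50 member differences. These values cover the comparisons between groups and the interaction, and not the averages over diet or over DSS. A quasi-likelihood count model was not run, and a fit of 2 groups gives no averaged or interaction value. The cause of a changed count or sign was not tested.

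Genes called in HFD+DSS against HFD were 48, and 10 without the filter, 12 with the 2 groups alone, 12 with the replicate block, 1 with the posterior Hox and 31 with the smooth muscle covariate, and 1 to 78 with a library left out. In CD+DSS against CD they were 12, and 5 without the filter, 2 with the block, 0 with the 2 groups alone or with any of the 3 covariates, and 0 to 33. For DSS averaged over the diets they were 389, and 173 without the filter, 162 with the block, 210 on the TPM scale, 13 with the pan-epithelial covariate, and 114 to 479. Comparisons with 0 calls gave 2 (HFD+DSS against CD+DSS), 2 (HFD averaged) and 1 (interaction) without the filter and 1 (HFD averaged) with the pan-epithelial covariate. With a library left out they gave 0 to 2 in HFD against CD, 0 to 1 in HFD+DSS against CD+DSS, 0 to 0 for HFD averaged and 0 to 3 for the interaction. The block changed no call of a member. It ended the calls of St3gal6 and Nlrp6.

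With the posterior Hox covariate, Spdef in HFD+DSS against HFD was at 0.11. In CD+DSS against CD it gave Muc2 -0.045, Muc1 0.41 and Atoh1 -0.028. It gave 0.18 for Tff3 and -0.16 for Atoh1 in HFD against CD, -0.28 for Fcgbp in HFD+DSS against CD+DSS, and -0.17 for Tff3 in the interaction. With the pan-epithelial covariate, CD+DSS against CD gave Muc2 -0.13, Muc4 -0.023, Muc13 -0.16, Tff3 -0.22 and Atoh1 -0.30, and HFD+DSS against CD+DSS gave Spink4 0.39. With the smooth muscle covariate these comparisons gave Muc4 -0.20, Muc13 -0.098 and Spink4 0.11, and the TPM scale gave Muc4 -0.023. Leaving out a library gave Spdef -0.37 to 0.017 in HFD+DSS against HFD, and in CD+DSS against CD Muc2 -0.028 to 0.53, Muc1 -0.86 to 0.036, Muc4 -0.13 to 0.33, Muc13 -0.12 to 0.37 and Agr2 -0.40 to 0.073. In HFD against CD it gave Muc2 -0.42 to 0.14, Tff3 -0.42 to 0.33, Spdef -0.68 to 0.096 and Atoh1 -0.076 to 0.16, and in HFD+DSS against CD+DSS Fcgbp -0.15 to 0.56. The differences of Muc2, Agr2, Spdef, Atoh1 and Muc4 in HFD+DSS against CD+DSS kept their sign under all 23. Depth limits Muc1 most, at 31 fragments in HFD replicate 2.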
